A study of Mus musculus with 19 samples.

Results

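Interferon-stimulated genes are the genes that a cell turns on after an interferon binds its receptor. A set of 39 of them, chosen by symbol and with *Ifi47* as the marker gene, was followed in RNA sequencing libraries from the mouse ocular surface. All 39 were among the 24557 features of each table. Female mice, C57BL/6 in the labels and C57BL/6 J in the methods, either ate freely (ad libitum, AL) or were kept on calorie restriction (CR), and no engineered allele was named for any group. The cornea libraries are of scraped epithelium and the conjunctiva libraries of excised tissue. The libraries numbered 5 AL and 5 CR for the cornea and 4 AL and 5 CR for the conjunctiva. Their titles carry 6M and 50W for every mouse, which the labels do not explain, and the sources describe the mice both as young and as adults put on the diet at about 6 months of age. Numbers such as CR 7 name a library within its tissue, and 8 combinations of diet and number occur in both tissues. The methods state that several tissues were taken from each mouse, so the 2 tissues may share animals. The methods also state that CR mice received their food once a day shortly before the dark phase, and for one of the cohorts they give CR mice a chow richer in vitamins and micronutrients than that of AL mice. The labels do not tie libraries to a cohort, so ration, feeding time and chow cannot be told apart.

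Type I interferons signal through IFNAR1 and IFNAR2, type II interferon through IFNGR1 and IFNGR2, and type III interferons through IFNLR1 and IL10RB. Janus kinases at these receptors phosphorylate STAT proteins. Complexes of these proteins bind the interferon-stimulated response element or the gamma-activated site in the promoters of target genes. The products include sensors of viral RNA, enzymes and membrane proteins that restrict viruses, the ubiquitin-like protein ISG15, parts of the MHC class I peptide pathway and GTPases that attack the vacuoles of intracellular pathogens. Barrier epithelia such as those of the eye express many of these genes at a low level without infection.

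Cornea libraries held 10354125 to 14681223 counted reads and conjunctiva libraries 10726717 to 14433441, with exact two-sided permutation p = 0.278 and 0.81 between diets. The share of features with 0 reads was 40.5% ± 2.70 (SD, n = 5) in AL and 44.4% ± 3.06 (SD, n = 5) in CR cornea (exact permutation p = 0.0714). The tissue labels matched some of their markers. The sum of 6 corneal epithelial markers was 533119 to 652115 normalized counts in AL cornea and 102883 to 124177 in AL conjunctiva. That of 6 conjunctival epithelial markers overlapped between tissues, at 48318 to 65654 in AL cornea and 54508 to 94249 in AL conjunctiva. *Krt12*, the keratin of corneal epithelium, measured 285544 to 330997 normalized counts in AL cornea, while *Muc5ac*, the goblet cell mucin, measured 3221 to 5530.2 in AL conjunctiva and at most 43.3 in any cornea library. Cornea CR 7 stood apart, with *Krt12* at 179846 against 262106 or more in the other CR libraries, *Krt19* at 4489.6 against at most 1802, and the myeloid integrin *Itgam* at 1914 against at most 990.1. *Itgam* made up most of the sum of 12 macrophage markers in CR 7, which was 2143. The cornea libraries also resembled each other across diets. Over the genes tested, the log2 values of AL 4, where 45.2% of features had 0 reads, correlated at 0.945 (Pearson's r) with those of CR 2 and CR 3 and at 0.900 to 0.912 with the other AL libraries. CR 1, with 39.9% at 0 reads, correlated at 0.936 to 0.948 with AL 1, 2, 3 and 5 and at 0.910 and 0.895 with CR 2 and CR 3. The study counts its replicates in mice, while the labels give only the library numbers.

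Among the 39 genes, *Ifi47* fell under CR in both tissues and no other member passed the test in either. A gene was called at a Benjamini-Hochberg adjusted p under 0.05 (limma, over all genes tested) with a fold change over 1.5. In the cornea, 36 members reached a mean of 10 normalized counts and were tested, and 1 was called, where 1.22% of all genes tested were called. All 39 were tested in the conjunctiva, and again 1 was called, against 0.359% of all genes. In bulk tissue, fewer cells of a type and less RNA per cell cannot be told apart.

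The fitted log2 change (CR minus AL, on the log2(normalized count + 1) scale) was negative for 20 of 36 members in the cornea and for 31 of 39 in the conjunctiva. Over all genes tested, 53.1% and 52% were negative. The median change of the members was −0.16 in the cornea, beside −0.03 for all genes, and −0.29 in the conjunctiva, beside −0.02. At an unadjusted p under 0.05, 8 members were lower and 1 was higher in the cornea, where 9.55% and 8.52% of all genes were. The conjunctiva had 9 lower and 0 higher members at that threshold, against 4.87% and 4.53% of all genes.

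**Figure D1:**
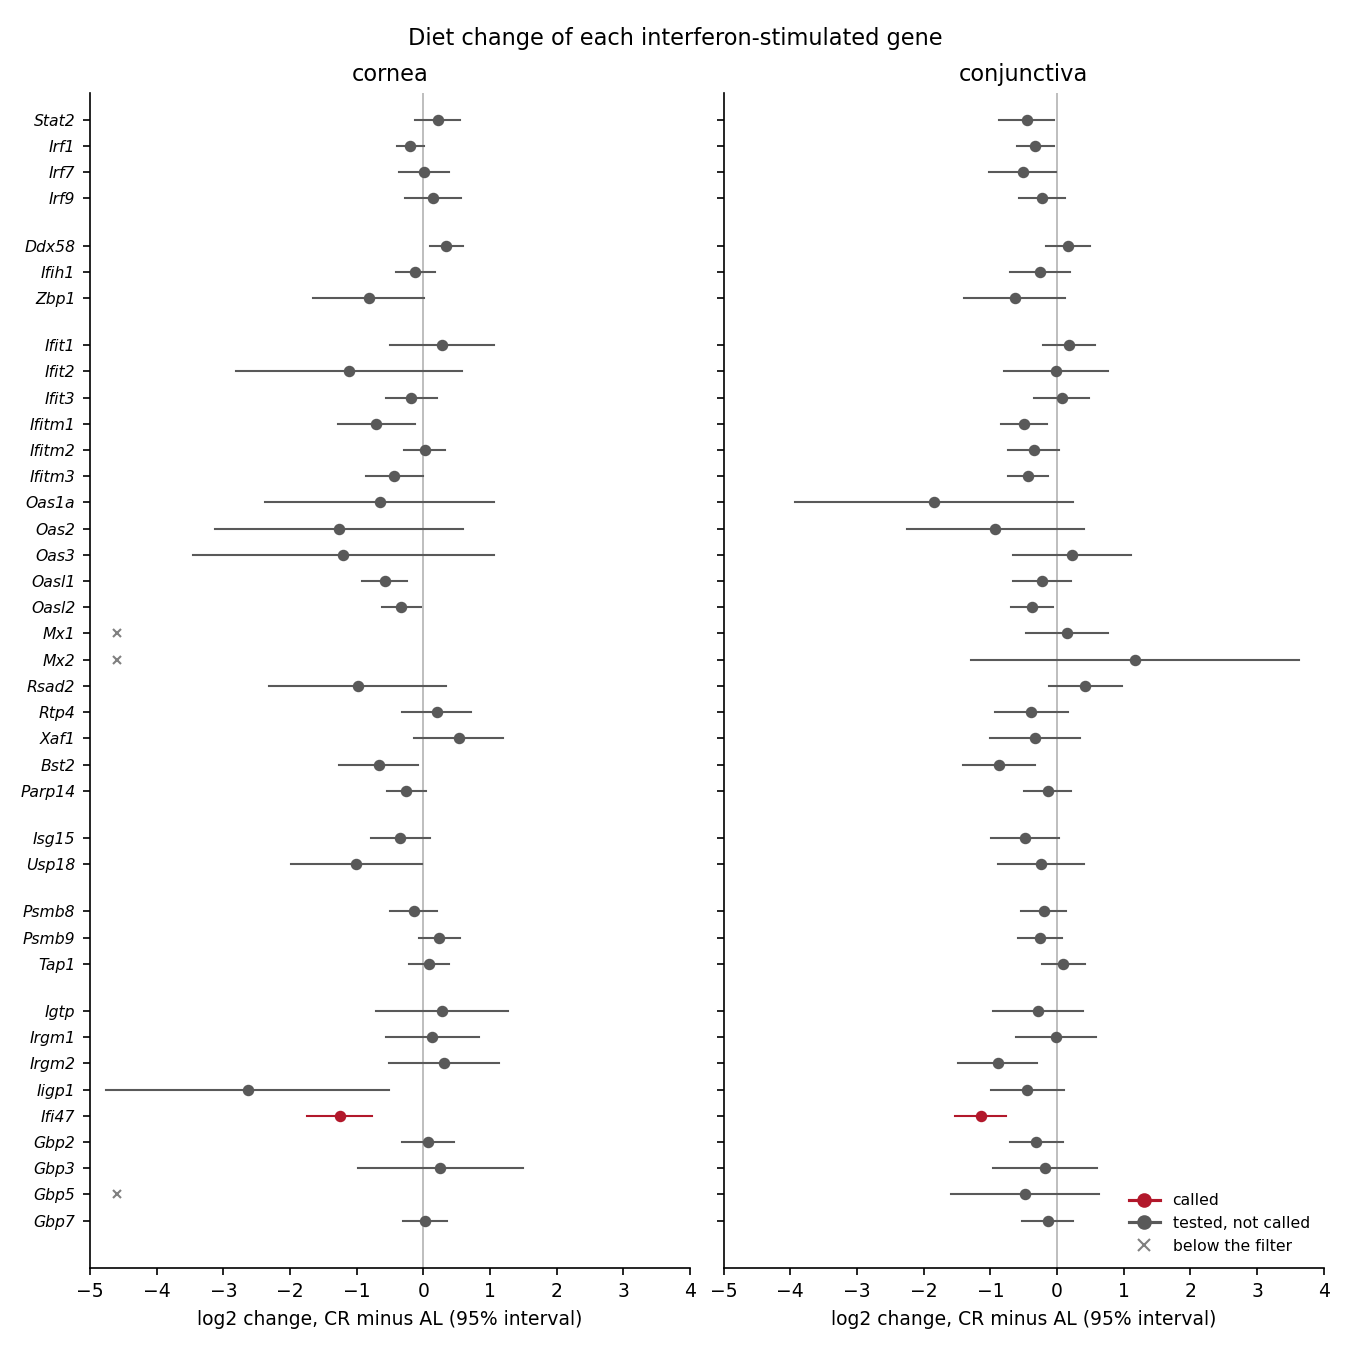
Log2 change (CR minus AL) of each of the 39 members with its 95% interval from the moderated limma fit, in the cornea (left) and conjunctiva (right), grouped by role. Red marks a called gene, grey a tested gene that was not called, and a cross a gene below the filter. *Ifi47* is red in both panels, at −1.25 and −1.14, and the conjunctival points lie mostly left of 0.

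*Ifi47* (gene ID 15953), also called IRG-47 or Irgd, encodes an immunity-related GTPase. RefSeq places it on chromosome 11, from 49076587 to 49096987 of GRCm38.p6, where the pseudogene *Gm12188* overlaps it. Its corneal level was 433, 499, 542, 466 and 463 normalized counts in AL 1 to 5 and 140.2, 117, 247, 247 and 323 in CR 1 to 4 and CR 7. Every CR library lay below every AL library. The change was −1.25 ± 0.23 (SE), adjusted p = 0.0116, a 2.38-fold lower level, and its 95% interval ran from −1.74 to −0.77. In the conjunctiva, *Ifi47* measured 826, 709, 625 and 795 normalized counts in AL 1, 3, 4 and 5 and 282, 404, 447, 264 and 300.3 in CR 1 to 5. Again the diets did not overlap, and the highest CR library, CR 3, was at 447 beside 625 in the lowest AL library. The conjunctival change was −1.14 ± 0.18 (SE), adjusted p = 0.00691, or 2.21-fold lower, with a 95% interval of −1.52 to −0.76. The difference between the tissues' changes was 0.11 ± 0.29 (SE; adjusted p = 0.942 over 11929 genes). AL and CR libraries did not overlap, with CR lower, for 1.89% of all genes in the cornea and 1.95% in the conjunctiva. Leaving out each library in turn kept the call in both tissues, and in the cornea the change was −1.26 without AL 4, −1.13 without CR 1 and −1.43 without CR 7.

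The neighbouring olfactory receptor gene *Olfr56*, whose model runs over *Ifi47* in some annotations, measured 0 to 16.7 normalized counts in cornea libraries and 0 to 21.3 in conjunctiva libraries. Its means were 4.20 in AL and 3.95 in CR cornea, and 13.7 in AL and 5.64 in CR conjunctiva. Whether reads were counted by strand is not given in the sources used here, so reads from overlapping genes could not be told apart.

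**Figure D2:**
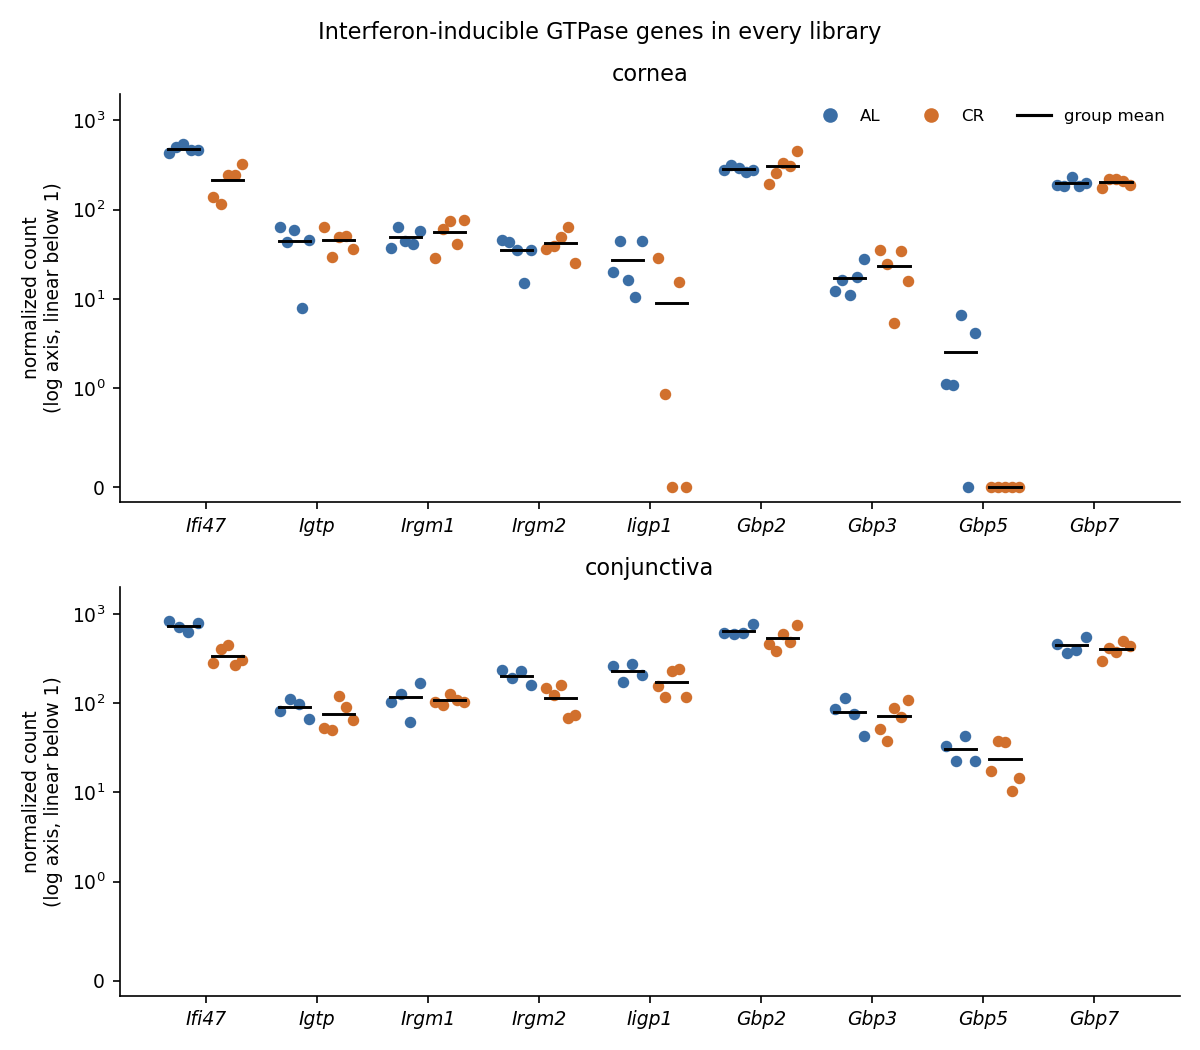
Normalized counts of the 9 interferon-inducible GTPase genes in each cornea library (top) and conjunctiva library (bottom) on a logarithmic axis that is linear below 1. Blue points are AL libraries, orange points CR libraries and black bars group means. The AL and CR points of *Ifi47* are apart in both tissues, at 433 to 542 against 117 to 323 in the cornea, while those of *Gbp2* and *Gbp7* overlap.

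*Ifi47* has 3 relatives on chromosome 11 among the members, *Igtp*, *Irgm1* and *Irgm2*, and their upstream sequences are shown because 1 of these 4 GTPase genes was called and 3 were not. Each run holds the 250 bases before the RefSeq start of the gene on GRCm38.p6, written 5′ to 3′ on the strand of the gene. Capitals mark the core of the interferon-stimulated response element, taken as 2 copies of GAAA parted by 2 bases of any kind, or the same on the other strand (2 copies of TTTC). The windows are chr11:49076337-49076586 (plus strand) for *Ifi47*, chr11:58199306-58199555 (plus strand) for *Igtp*, chr11:48871421-48871670 (minus strand) for *Irgm1* and chr11:58214727-58214976 (plus strand) for *Irgm2*.
Ifi47: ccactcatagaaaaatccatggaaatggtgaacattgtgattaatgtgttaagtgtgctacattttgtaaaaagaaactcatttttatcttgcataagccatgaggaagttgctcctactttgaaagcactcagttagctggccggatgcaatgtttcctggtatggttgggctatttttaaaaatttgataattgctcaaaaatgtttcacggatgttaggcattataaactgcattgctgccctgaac
Igtp: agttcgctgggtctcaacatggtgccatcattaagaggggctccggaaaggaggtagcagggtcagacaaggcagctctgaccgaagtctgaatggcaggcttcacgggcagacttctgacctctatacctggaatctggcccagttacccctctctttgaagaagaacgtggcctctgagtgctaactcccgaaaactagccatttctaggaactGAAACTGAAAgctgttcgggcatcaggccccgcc
Irgm1: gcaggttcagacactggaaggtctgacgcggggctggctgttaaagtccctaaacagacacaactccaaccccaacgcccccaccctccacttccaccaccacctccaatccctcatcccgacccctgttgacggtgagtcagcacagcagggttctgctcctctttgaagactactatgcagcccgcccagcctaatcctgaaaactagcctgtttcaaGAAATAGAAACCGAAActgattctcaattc
Irgm2: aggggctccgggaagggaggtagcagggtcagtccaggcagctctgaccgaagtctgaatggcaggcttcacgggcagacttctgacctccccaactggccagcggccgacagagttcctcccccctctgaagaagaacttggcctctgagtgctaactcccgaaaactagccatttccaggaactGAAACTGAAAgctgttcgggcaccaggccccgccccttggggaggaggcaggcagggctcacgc

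The core stood once in the *Igtp* window, beginning 34 bases before the start, and once in that of *Irgm2*, 64 bases before it. *Irgm1* held 2 overlapping copies from 30 and 24 bases before its start, and these letters were not in the *Ifi47* window. Only those 250 bases were searched for *Ifi47*, so a core elsewhere at the gene would be missed. The start used can matter: for *Gbp3* the window from 142559794 held 2 copies and that from 142560106 held 0. Promoter sequences were at hand for 31 of the 39 members, and 16 of those (51.6%) held the core on either strand, beside 2.98% of all 32851 windows. The gamma-activated site TTCNNNGAA, which reads the same on both strands, was in 9 (29.03%) of the members and 7.02% of all windows. For both motifs a member counted if any of its windows held the motif, while the background was counted by window. The 31 members had 35 windows, so the shares are not strictly alike. It stood in the windows of *Igtp* and *Irgm2* and not in those of *Ifi47* and *Irgm1*. *Ifitm1*, *Ifitm3*, *Oasl1*, *Oasl2* and *Ddx58*, described below, held neither motif in their windows, while *Bst2* held 2 overlapping copies of the core. A match is a string of letters and no measurement of binding.

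The other interferon-inducible GTPases, immunity-related GTPases and guanylate-binding proteins, act on pathogen vacuoles. In the cornea 2 of 8 tested GTPase genes, *Ifi47* and *Iigp1*, had a negative change, and 4 of 8 did without AL 4 or after adjustment for the share of features without reads. In the conjunctiva all 9 of 9 were negative, 8 with quantile normalization, and 7 without AL 3 or without CR 2. *Irgm2*, a regulator of the other GTPases, measured 232, 193, 229 and 161 normalized counts in AL 1, 3, 4 and 5 and 147, 123, 161, 68.6 and 74.2 in CR 1 to 5 of the conjunctiva. Only AL 5 fell within the range of the CR libraries, just under CR 3. Its change there was −0.89 ± 0.28 (SE), adjusted p = 0.253. In the cornea *Irgm2* read 46.2, 43.7, 34.9, 15.03 and 35.02 in the AL libraries and 36.1, 39.6, 49.2, 63.4 and 25.1 in the CR libraries, and the change was 0.31 ± 0.39 (SE), adjusted p = 0.715. The diets overlapped there.

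*Iigp1*, which disrupts the vacuole of *Toxoplasma*, lay near the floor of the corneal libraries. Its values there were 19.8, 44.8, 16.4, 10.6 and 44.3 normalized counts in AL 1 to 5 and 28.5, 0.942, 0, 15.3 and 0 in CR 1 to 4 and CR 7. CR 1 and CR 4 lay inside the AL range and the other CR libraries held no more than 1 read. The fitted change was −2.64 ± 1.01 (SE), adjusted p = 0.189, and it moved from −3.10 to −1.10 between pseudocounts of 0.5 and 10. In the conjunctiva *Iigp1* ran from 171 to 275 in AL and from 117 to 244 in CR (change −0.45 ± 0.26 (SE), adjusted p = 0.622). *Gbp2*, *Gbp3*, *Gbp7*, *Igtp* and *Irgm1* had corneal changes between 0.02 and 0.28, and conjunctival ones between −0.31 and −0.02, with no adjusted p under 0.638. *Gbp5* was below the filter in the cornea, where AL libraries held 0 to 6.55 normalized counts and all 5 CR libraries had 0 reads, which allows up to 2.27 to 3.29 normalized counts depending on the library. Its conjunctival change was −0.48 ± 0.53 (SE), adjusted p = 0.828.

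Among the antiviral effectors, 12 of 16 tested members had a negative change in the cornea (median −0.51) and 12 of 18 in the conjunctiva (median −0.28), and none was called. *Oasl1*, an oligoadenylate synthetase-like protein that represses the translation of IRF7, read 1042, 931, 1087, 998 and 937 normalized counts in AL 1 to 5 and 518, 583, 533, 842 and 973 in CR 1 to 4 and CR 7. CR 1, CR 2 and CR 3 lay far below the AL libraries and CR 4 somewhat below them, whereas CR 7 was within their range. The change was −0.58 ± 0.16 (SE), adjusted p = 0.072. Without CR 7 it was −0.72 (adjusted p = 0.0108) and without CR 4 −0.66 (adjusted p = 0.0482), both past the call. CR 7 and CR 4 held the highest CR values, so leaving either out could only widen the change. Leaving out any other corneal library gave *Oasl1* no call. In the conjunctiva *Oasl1* overlapped throughout, at 452, 311, 299 and 392 in the AL libraries and 394, 327, 219, 249.99 and 383 in the CR libraries (change −0.22 ± 0.21 (SE), adjusted p = 0.79).

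*Ifitm1*, an interferon-induced membrane protein that hinders virus entry, followed the same libraries in the cornea. It measured 8703, 8978, 8395, 6935 and 8293 normalized counts in AL 1 to 5 and 3270.3, 3935, 4034, 6530.4 and 9537 in CR 1 to 4 and CR 7. Here too CR 1, CR 2 and CR 3 were low, CR 4 was just under the lowest AL library, and CR 7 was the highest of all 10. The change was −0.71 ± 0.26 (SE), adjusted p = 0.198, and without CR 7 it was −0.94 (adjusted p = 0.00829) and the gene was called. Leaving out the highest CR library could only widen the change, and leaving out any other corneal library gave *Ifitm1* no call. The markers by which CR 7 stood apart are given above, and their part in these values was not tested. Conjunctival *Ifitm1* was 17489, 17438, 14456 and 20083 in the AL libraries and 11585, 12794, 9361, 12774 and 15713 in the CR libraries. CR 5 alone lay above the lowest AL library, and the change was −0.49 ± 0.16 (SE), adjusted p = 0.284. It was called under quantile normalization (−0.71, adjusted p = 0.0285) and after adjustment for the share of features without reads (−0.69, adjusted p = 0.0154).

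*Ifitm3*, which restricts viruses in endosomes, measured 7858, 9042, 6481 and 6798 normalized counts in AL 1, 3, 4 and 5 and 6132, 5403, 5871, 5199 and 5063 in CR 1 to 5 of the conjunctiva. Every CR library lay below every AL library, by a narrow margin between CR 1 and AL 4. Even so the change, −0.44 ± 0.14 (SE), adjusted p = 0.265, did not pass the test. In the cornea its values were 510.5, 682, 934, 588 and 525 in the AL libraries and 464, 372, 383, 439 and 763 in the CR libraries. CR 7 lay well above the other CR libraries, and the change was −0.43 ± 0.20 (SE), adjusted p = 0.267. *Ifitm2*, the third family member measured, had changes of 0.02 ± 0.15 (SE) in the cornea and −0.35 ± 0.18 (SE) in the conjunctiva. These 3 genes lie together on chromosome 7 and share sequence, so reads that fit more than 1 of them are uncertain.

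**Figure D3:**
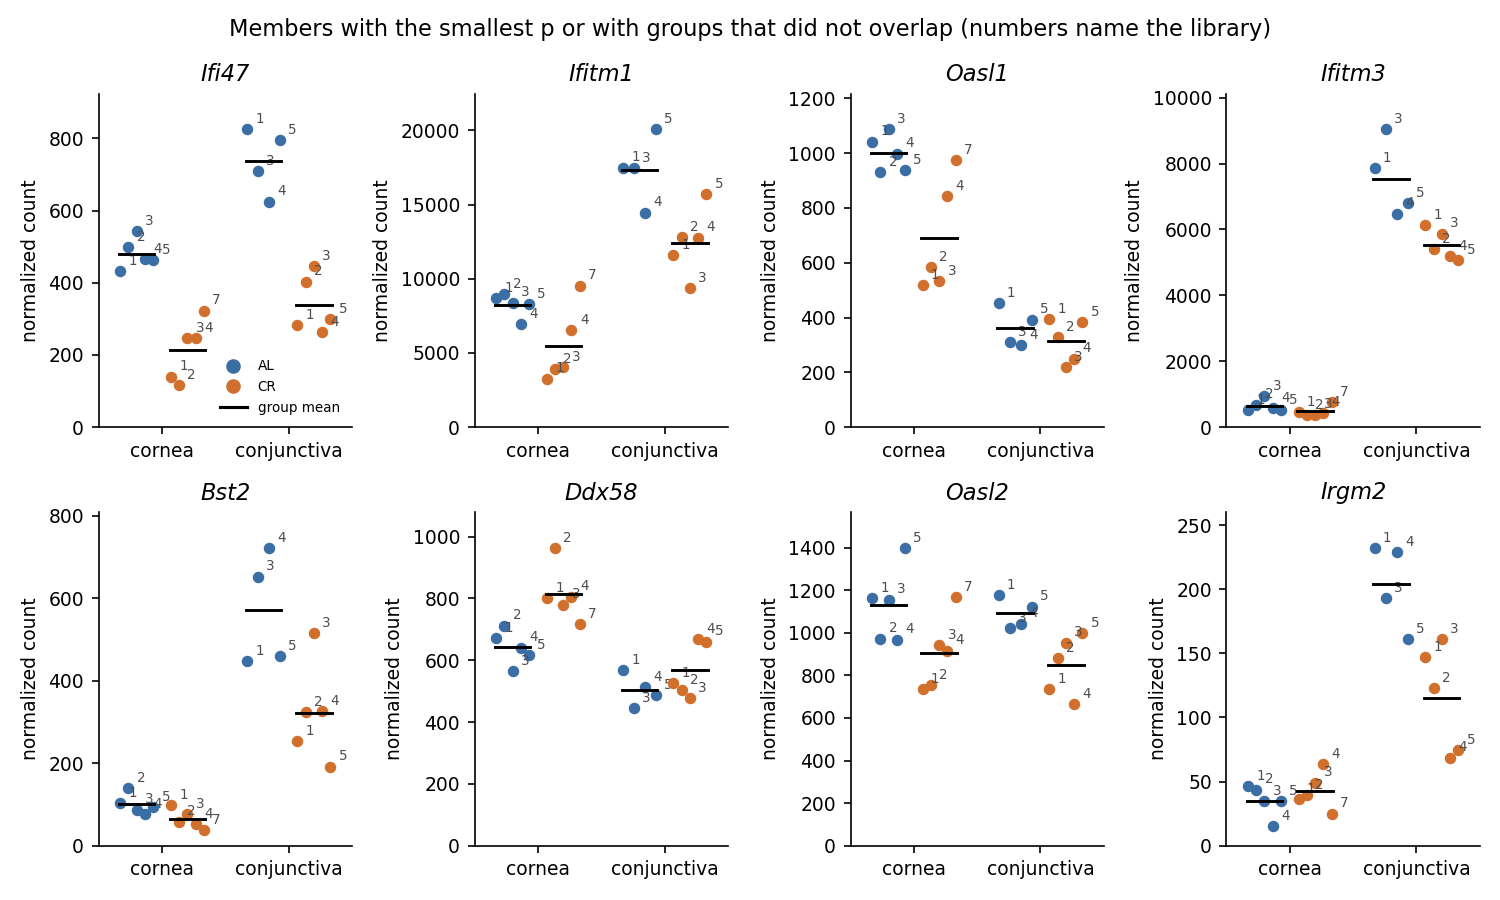
Normalized counts of 8 members in each library, with AL in blue, CR in orange, group means as black bars and library numbers beside the points. Each vertical axis starts at 0, and cornea and conjunctiva were scaled separately. In the cornea CR 4 and CR 7 lie above CR 1, CR 2 and CR 3 for *Ifitm1* and *Oasl1*, and in the conjunctiva CR 3 is the highest CR library for *Ifi47* at 447.

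*Bst2*, or tetherin, holds budding virions at the cell surface. In the conjunctiva it was at 449, 653, 723 and 461 normalized counts in AL 1, 3, 4 and 5 and 254, 324, 516, 327 and 192 in CR 1 to 5. CR 3 lay among the AL libraries and the other 4 CR libraries lay below them. The change was −0.87 ± 0.25 (SE), adjusted p = 0.208, and without CR 3 it was −1.06 (adjusted p = 0.0265) and was called. CR 3 held the highest CR value, so leaving it out could only widen the change. Leaving out any other conjunctival library gave *Bst2* no call. The corneal values were 103, 139.8, 87.3, 76.9 and 92.7 in the AL libraries and 97.5, 58.4, 77.3, 52.1 and 37.1 in the CR libraries and overlapped, with a change of −0.67 ± 0.28 (SE), adjusted p = 0.22. *Oasl2*, a relative of *Oasl1*, read 1175, 1021, 1044 and 1123 normalized counts in AL 1, 3, 4 and 5 and 735, 880.4, 954, 666 and 999.6 in CR 1 to 5 of the conjunctiva. The diets did not overlap, the gap from CR 5 to AL 3 being small, and the change was −0.38 ± 0.15 (SE), adjusted p = 0.408. The corneal *Oasl2* values were 1163, 972, 1156, 968 and 1399.6 in the AL libraries and 736, 753, 942, 917 and 1169 in the CR libraries, with CR 7 inside the AL range and a change of −0.33 ± 0.14 (SE), adjusted p = 0.223.

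No member with a positive change was called. *Rsad2*, or viperin, which makes a chain-terminating nucleotide, had the smallest p among them in the conjunctiva, with 84.4, 93.1, 115 and 162 in the AL libraries and 102, 132, 182, 183 and 158 in the CR libraries. The diets overlapped and the change was 0.43 ± 0.26 (SE), adjusted p = 0.645. In the cornea it was at 29.7, 51.3, 24.01, 23.9 and 48.4 in the AL libraries and 21.9, 47.1, 28.8, 16.3 and 1.86 in the CR libraries, where CR 7 held 1.86 and the change was −0.98 ± 0.63 (SE), adjusted p = 0.421. *Ifit1*, which binds foreign RNA ends, had 256, 245, 302 and 334 in the AL libraries and 399, 309, 362, 244 and 301 in the CR libraries of the conjunctiva (change 0.17 ± 0.18 (SE), adjusted p = 0.821), and 55.7 to 192 in AL and 56.7 to 200.01 in CR cornea (change 0.28 ± 0.36 (SE), adjusted p = 0.722). It overlaps *Ifit1bl1*. *Mx2*, a dynamin-like GTPase, had few reads. Its conjunctival values were 11.3, 6.73, 4.30 and 0 in the AL libraries and 12.7, 19.04, 30.9, 14.3 and 0 in the CR libraries, with 1 library of each diet at 0 (change 1.16 ± 1.16 (SE), adjusted p = 0.808), and it was below the filter in the cornea at no more than 7.64.

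*Xaf1*, an interferon-induced antagonist of XIAP, showed 56.1, 56.8, 26.2, 81.4 and 56.6 in the AL libraries and 74.5, 68.8, 111, 51.1 and 85.4 in the CR libraries of the cornea. CR 3 and CR 7 lay above the AL range, and the change was 0.53 ± 0.32 (SE), adjusted p = 0.389. Its conjunctival change was −0.33 ± 0.32 (SE), adjusted p = 0.798, over 77.98 to 86.1 in AL and 38.96 to 98.4 in CR. For *Rtp4*, an interferon-induced protein with antiviral activity, the corneal values were 122, 62.3, 67.7, 106 and 138 in the AL libraries and 99.7, 98.9, 122, 122 and 103 in the CR libraries, and the CR libraries lay close together inside the AL range (change 0.20 ± 0.25 (SE), adjusted p = 0.707). In the conjunctiva it was the AL libraries that lay close together, at 189.7 to 196, and the CR libraries spread from 96.4 to 262 (change −0.39 ± 0.26 (SE), adjusted p = 0.684). The remaining effectors were *Ifit2*, *Ifit3*, *Oas1a*, *Oas2*, *Oas3*, *Mx1* and *Parp14*. Corneal changes of these genes lay between −1.26 and −0.18, conjunctival ones between −1.84 and 0.22, with no adjusted p under 0.345, and *Mx1* was not tested in the cornea. Cornea CR 7 had 0 reads of *Ifit2*, *Oas2* and *Oas3* and 0.929 normalized counts of *Oas1a*.

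The sensors differed among themselves. *Ddx58*, which encodes the viral RNA sensor RIG-I, read 671, 712, 565, 641 and 617 normalized counts in AL 1 to 5 and 801, 964, 779.6, 806 and 718 in CR 1 to 4 and CR 7. Every CR library lay above every AL library, although CR 7 exceeded AL 2 by little, and 2.08% of all corneal genes were separated in that direction. The change was 0.34 ± 0.12 (SE), adjusted p = 0.149, which did not pass the test. In the conjunctiva its values were 569, 444, 512 and 487 in the AL libraries and 525, 504, 477, 668 and 660.5 in the CR libraries, and 2 CR libraries, CR 4 and CR 5, were above the AL range (change 0.16 ± 0.16 (SE), adjusted p = 0.794). *Ifih1*, which encodes the RNA sensor MDA5, had log2 changes of −0.12 ± 0.14 and −0.26 ± 0.21 (SE) in cornea and conjunctiva. *Zbp1*, a sensor of Z-form nucleic acid, had changes of −0.82 ± 0.40 (SE), adjusted p = 0.285, in the cornea and −0.64 ± 0.36 (SE), adjusted p = 0.606, in the conjunctiva, on corneal counts of 14.4 to 42.2.

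All 4 transcription factors among the members had negative changes in the conjunctiva. In the cornea 1 of 4 did, and 2 of 4 when AL 3, AL 4, AL 5, CR 4 or CR 7 was left out. *Stat2*, the subunit specific to type I and III signaling, measured 293, 249, 323 and 295 normalized counts in AL 1, 3, 4 and 5 and 210.4, 174, 294, 178 and 213 in CR 1 to 5 of the conjunctiva. CR 3 lay with the AL libraries and the other 4 CR libraries below them, and the change was −0.46 ± 0.19 (SE), adjusted p = 0.461. In the cornea it was 219, 192, 178, 196 and 169 in the AL libraries and 202, 261, 227, 236 and 185 in the CR libraries, with 3 CR libraries above the AL range and a change of 0.21 ± 0.16 (SE), adjusted p = 0.502. *Irf1*, a factor induced mainly by interferon gamma, was at 6167 to 7133 in AL and 5192 to 6623 in CR cornea (change −0.19 ± 0.10 (SE), adjusted p = 0.305), and at 4752 to 5251 and 3626 to 4833 in the conjunctiva (change −0.33 ± 0.13 (SE), adjusted p = 0.426). *Irf7*, the amplifier of type I interferon, and *Irf9* had corneal changes of 0.01 ± 0.18 and 0.14 ± 0.20 (SE) and conjunctival ones of −0.52 ± 0.23 and −0.23 ± 0.16 (SE).

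For the genes of MHC class I peptide supply, *Psmb8* and *Psmb9* of the immunoproteasome and the transporter *Tap1*, corneal changes lay between −0.15 and 0.24 and conjunctival ones between −0.26 and 0.10. *Psmb9* measured 491, 543, 480.2, 489.9 and 387 in the AL libraries and 482, 585, 505, 509.9 and 773 in the CR libraries of the cornea, CR 2 and CR 7 lying above the AL range (change 0.24 ± 0.15 (SE), adjusted p = 0.394). Its conjunctival values were 915, 906, 862 and 1215 in the AL libraries and 816, 900.4, 738, 945 and 674 in the CR libraries (change −0.26 ± 0.15 (SE), adjusted p = 0.635). *Tap1*, which starts beside *Psmb9* on the opposite strand, had 494, 529.7, 558 and 564 in the AL libraries and 715, 592, 580.2, 549 and 459 in the CR libraries of the conjunctiva (change 0.10 ± 0.15 (SE), adjusted p = 0.888), and 290.3 to 409 in AL and 299.99 to 395 in CR cornea (change 0.09 ± 0.14 (SE), adjusted p = 0.778). *Isg15* had log2 changes of −0.35 ± 0.21 and −0.48 ± 0.24 (SE) in cornea and conjunctiva, and its protease *Usp18* of −1.003 ± 0.47 and −0.24 ± 0.30 (SE). Their adjusted p-values were 0.401 and 0.553 for *Isg15* and 0.27 and 0.854 for *Usp18*.

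The diet changes of the 2 tissues were compared gene by gene, as each tissue was scaled on its own and levels were not tested across them. None of the 36 members tested in both passed an adjusted p of 0.05 (limma fits, Satterthwaite degrees of freedom), 5 had an unadjusted p under 0.05, and 0.0168% of all 11929 genes passed the adjusted threshold. This test took the tissues as independent, although they may share mice. Compared within the 8 shared combinations of diet and number, 0 of the 36 members and 0 of the 11929 genes passed. *Stat2* and *Irgm2* had the smallest p among the members. The conjunctival minus the corneal change was −0.67 ± 0.25 (SE, adjusted p = 0.515) for *Stat2* and −1.20 ± 0.48 (SE, adjusted p = 0.556) for *Irgm2*.

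The mean level of the members differed between libraries of the same diet. With each gene's log2 value centered on its own mean, the mean over the 36 members in the cornea ran from −0.08 (AL 4) to 0.45 (AL 5) in AL and from −0.62 (CR 7) to 0.09 (CR 4) in CR. CR 7 had the lowest mean, while 17 of its 36 members were above their own means and 4 were at their highest there. Over the 39 members in the conjunctiva, AL libraries ran from 0.08 to 0.23, and CR 1, 2, 4 and 5 from −0.27 to −0.18. Conjunctiva CR 3, at 0.21, lay with the AL libraries, and 28 of its 39 members were above their own means. Over all genes tested, its mean was 0.09, against −0.14 to −0.01 in the other CR libraries. Without CR 3, 33 of 38 members tested had a negative change and 2 were called, where 0.913% of all genes were. Leaving cornea CR 7 out gave 21 of 36 negative changes and 3 calls, against 1.32% of all genes. Conjunctiva CR 3 was picked by its high member values, so leaving it out had to lower the mean change of the members. Cornea CR 7 was also picked after its values were seen, and neither set of counts is read as a separate result.

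**Figure D4:**
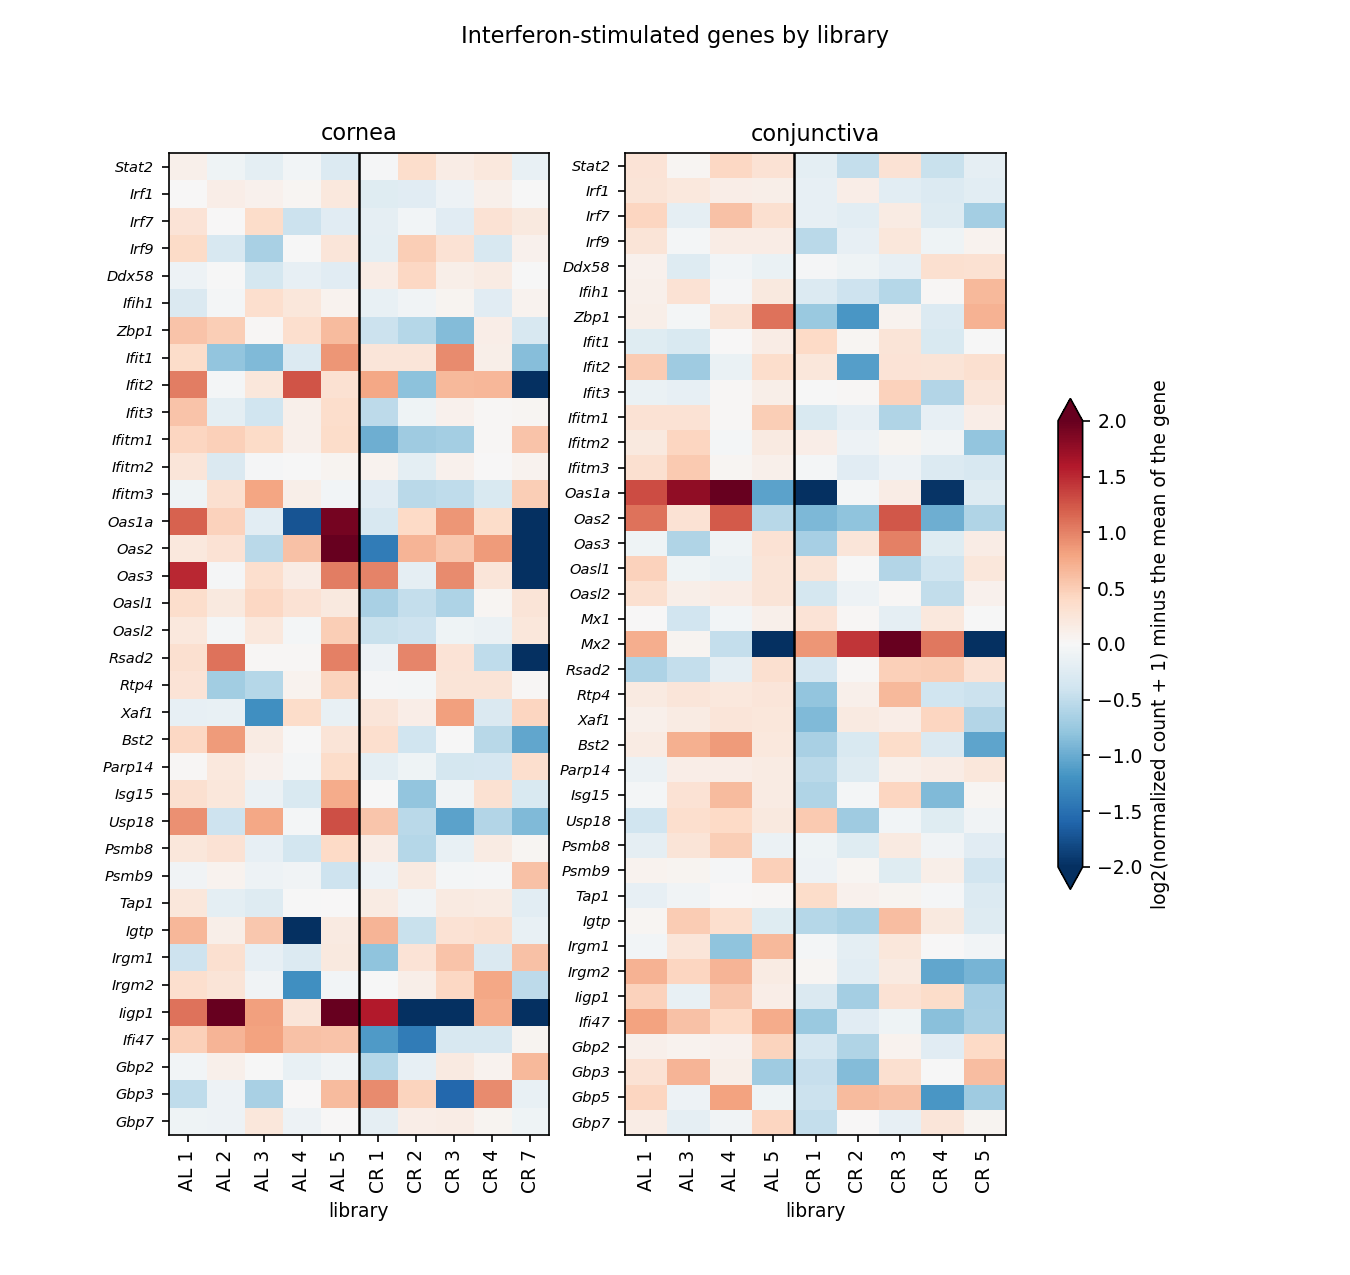
Map of the members tested (rows) in each library (columns) of the cornea (left) and conjunctiva (right), coloured by log2(normalized count + 1) minus the mean of the gene over the libraries of that tissue, with colours ending at 2 and −2. A black line parts AL from CR libraries. The column of cornea CR 7 holds dark blue cells for *Ifit2*, *Oas1a*, *Oas2*, *Oas3* and *Rsad2*, and the *Ifi47* row is red in AL and mostly blue in CR in both tissues.

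Interferons themselves were hardly seen. Of 9 ligand genes (*Ifnb1*, *Ifna1*, *Ifna2*, *Ifna4*, *Ifnk*, *Ifne*, *Ifng*, *Ifnl2* and *Ifnl3*), 8 had 0 reads in all 19 libraries, each of which allows up to 3 reads, or 2.27 to 3.37 normalized counts. *Ifne*, the interferon of epithelia, had 6 reads in 1 cornea library and 1 read in 1 conjunctiva library. At this depth a low ligand level could not be detected. All 6 receptor genes were expressed and none was called. In the cornea the changes were −0.04 ± 0.19 for *Ifnar1*, 0.03 ± 0.24 for *Ifnar2*, −0.19 ± 0.16 for *Ifngr1*, −0.06 ± 0.22 for *Ifngr2*, −0.15 ± 0.21 for *Ifnlr1* and 0.01 ± 0.24 for *Il10rb* (SE throughout). In the conjunctiva *Ifngr1*, a chain of the interferon gamma receptor, measured 1371, 1798, 1082 and 1216 normalized counts in AL 1, 3, 4 and 5 and 1009, 1028, 1013, 1029.7 and 986 in CR 1 to 5. The CR libraries lay close together below the AL range, and the change was −0.41 ± 0.15 (SE), adjusted p = 0.359. The other receptors had log2 changes of −0.20 (*Ifngr2*), −0.10 (*Ifnlr1*), −0.10 (*Ifnar1*), 0.04 (*Il10rb*) and 0.23 (*Ifnar2*) there.

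Of 85 other genes of the pathway measured, 62 were tested in the cornea and 69 in the conjunctiva, with median changes of −0.11 and −0.18. They include 38 further interferon-stimulated genes, of which 23 of 28 tested had negative changes in the cornea and 27 of 33 in the conjunctiva. Only *Ifi27*, which encodes a small hydrophobic protein, was called, and only in the cornea. It read 1011, 1065, 800.03, 653 and 1104 normalized counts in AL 1 to 5 and 738, 409, 548, 626 and 496 in CR 1 to 4 and CR 7. CR 1 lay above AL 4, so the diets overlapped, and the change was −0.72 ± 0.17 (SE), adjusted p = 0.0435. The call held in 9 of 20 alternative analyses and in 3 of 10 that left out 1 library, with changes of −0.84 to −0.61 and adjusted p up to 0.135 among the latter. It was lost without AL 1, AL 2, AL 3, AL 5, CR 2, CR 3 or CR 7.

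In the cornea 2 of 62 pathway genes were lower and 1 was higher in every CR library than in every AL library, where 1.89% and 2.08% of all genes were, and in the conjunctiva 3 of 69 were lower, against 1.95%. None of these passed the test, and with so few genes the counts are not read as a result. *Socs1*, an inhibitor of Janus kinases, was low in the cornea at 8.80, 14.2, 3.27, 20.3 and 12.4 normalized counts in AL 1 to 5 and 26.3, 50.9, 40.9, 33.7 and 70.6 in CR 1 to 4 and CR 7. All 5 CR libraries were above all 5 AL libraries, and the change was 1.93 ± 0.53 (SE), adjusted p = 0.0708. It was called without AL 4, with quantile normalization and with array weights, over changes of 1.23 to 2.65 in all 19 alternatives. Its conjunctival change was −0.89 ± 0.35 (SE), adjusted p = 0.408, and the difference between tissues was −2.82 ± 0.63 (SE, adjusted p = 0.137). *Parp9*, a partner of the ubiquitin ligase DTX3L, was lower in every CR library of the cornea, with 769 to 844 in AL and 657 to 757 in CR (change −0.21 ± 0.11 (SE), adjusted p = 0.313). In the conjunctiva *Irf5*, a factor of innate immune cells, had 152 to 274 in AL and 98.99 to 151 in CR (change −0.62 ± 0.23 (SE), adjusted p = 0.372), and *Slfn8*, of the Schlafen family, 68.5 to 125 and 31.03 to 67.6 (change −1.12 ± 0.33 (SE), adjusted p = 0.208).

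Markers of immune and stromal cells were measured beside the members. In the conjunctiva all 12 of 12 macrophage markers had negative changes with none called, and their summed level was 4438 to 5792 normalized counts in AL and 3602 to 4018 in CR. The sum of 5 MHC class II genes was 7193 to 11311 in AL and 4848 to 7016 in CR, and *Cd74*, the invariant chain, was called (−0.86 ± 0.14 (SE), adjusted p = 0.00742). Fibroblast markers, 7 genes with 2 called (*Col1a1* and *Col3a1*), summed to 39838 to 59549.8 in AL and 26156 to 51639 in CR. The part of these cells in the lower *Ifi47* of the conjunctiva was not tested. Conjunctiva CR 3 had 4018 for macrophages (3901 in CR 4) and 2476 for endothelium, the highest CR value for each. Its sums for T and NK, B and plasmacytoid dendritic cells were also the highest in CR. Its MHC class II and fibroblast sums, 5943 and 42392, were below the 7016 and 51639 of CR 4. Corneal and conjunctival epithelial markers summed to 97313 and 44522 in CR 3, the lowest of all conjunctiva libraries. The part of these differences in its member values was not tested.

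In the cornea the macrophage sum was 1029 to 1497 in AL and 864 to 2143 in CR, with 6 of 7 tested markers negative. *Itgam* made up most of the highest sum, that of CR 7. *C1qa* was called (−1.58 ± 0.39 (SE), adjusted p = 0.0467), a call that held in 3 of 10 analyses that left out 1 library, and it was lost without AL 1, AL 2, AL 3, AL 5, CR 2, CR 3 or CR 7 (adjusted p up to 0.138). The MHC class II sum was 418 to 597 in AL and 149 to 620.4 in CR, with 0 called. Markers of T and NK cells summed to at most 34.4 in any cornea library and 155 in any conjunctiva library, and B cell markers to at most 15.4 in any library. The 4 plasmacytoid dendritic cell markers summed to 84.01 to 177 in AL and 22.7 to 120.5 in CR cornea, where the 2 tested, *Ccr9* and *Pacsin1*, had negative changes and neither was called. In the conjunctiva they summed to 851 to 6032 in AL and 905 to 15254 in CR, with 1 of 4 negative and 0 called, and *Cox6a2*, also a gene of striated muscle, made up most of that sum. *Siglech*, the defining marker, reached 4.38 in the cornea and 53.9 in the conjunctiva. Corneal epithelial markers summed to 533119 to 652115 in AL and 469340.0 to 673661 in CR cornea. Their part in the corneal values was not tested.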

How the data were processed

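Single-end reads were processed by the authors in ROSALIND, with cutadapt for trimming, STAR for alignment and HTSeq for gene counts. The study's methods name the genome build mm10, whereas the submitters' processing notes name GRCm39. Likewise the labels name a stranded kit and the methods an oligo(dT)-primed one, so levels were not compared between genes. The deposited values are log2(normalized count + 1), for which the authors used DESeq2 size factors, with each tissue scaled in its own table. Each value was turned back into a normalized count, and 100% came out as whole reads (tolerance 0.01 read). All columns were mapped to a library (0 left over). A count of 0 was read as allowing up to 3 reads, a floor that covers counting error only.

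Diets were compared within a tissue with limma 3.58.1 (statmod 1.5.0, R 4.3.3; intensity trend, robust moderation) over all genes whose mean reached 10 normalized counts, with Benjamini-Hochberg adjustment. Count models were not run, because the unit is log2. For genes with few reads, fold changes on this scale can exceed or fall short of the ratio of group means. Corneal *Iigp1* was fitted 6.22-fold lower in CR, on means of 27.2 normalized counts in AL and 8.95 in CR. Conjunctival *Mx2* was fitted 2.24-fold higher, on means of 5.57 in AL and 15.4 in CR. The fit was also run on simulated counts, with large changes planted in genes well above the filter. That run does not speak for genes with few reads or small changes.

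The members and lists were chosen with earlier results of these data known. Values in every library are given for members with an adjusted p under 0.05, for the 5 higher and 5 lower members of smallest p in each tissue, for members whose diets did not overlap, for the 2 of smallest p between tissues, and for *Ifi47*. Pathway genes are named if they passed that threshold or were separated, and receptors and ligands in any case; 1 pathway gene is not reported here. Other genes named were chosen after their values were seen. Alternatives were pseudocounts of 0.5 and 10, no filter and a filter at 50, and quantile and TMM (written in base R) scaling. Others were voom on the recovered reads with the scaling of the main fit, array weights and a block for the replicate number. The rest were adjustment for the share of features without reads, other thresholds, and leaving out each library. Genes are RefSeq's on GRCm38.p6, matched by gene ID. Promoter sequences from RefSeq were matched for 31 of 39 members.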

Additional observations from a re-analysis of the deposited data

Results flagged for a closer look

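Among 72 groups of 4 or 5 libraries examined for the named members and the mean over members, 3 held a library set apart from the rest of its group by Dixon's criterion, which chance passes in about 1 of 20 groups. *Ifitm3* in cornea CR 7 measured 763 normalized counts, against 372 to 464 in the other corneal CR libraries. *Psmb9* in conjunctiva AL 5 measured 1215, against 862 to 915 in the other conjunctival AL libraries. The mean centered log2 value over the members was 0.21 in conjunctiva CR 3, against −0.27 to −0.18 in the other conjunctival CR libraries.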

How the results depend on the processing

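*Ifi47* kept its direction and its call in all 20 alternatives of the cornea (log2 change −1.44 to −1.06, adjusted p up to 0.0454) and in 18 of 19 of the conjunctiva (−1.25 to −1.06, adjusted p up to 0.057). In the cornea, 4 members were called with array weights (*Ifi47*, *Ifitm1*, *Iigp1* and *Oasl1*), a setting that called 705 (5.74%) of all genes. At an adjusted p under 0.1 alone 2 members passed, and the share of all genes is not given here. When 1 library was left out, 1 to 3 members were called, beside 0.432% to 4.35% of all genes. In the conjunctiva, 2 members were called with quantile normalization (0.402% of all genes) and 2 after adjustment for the share of features without reads (0.445%). Leaving out 1 library there gave 1 to 2 called members, beside 0.186% to 0.913% of all genes. With a filter at a mean of 50 normalized counts, 25 members were tested in the cornea and 12 had a negative change, fewer because fewer were tested. The cause of the other differences was not tested. Of 638 values of single named members under the alternatives, 628 kept direction and side of the threshold, 9 newly passed it, 1 no longer passed it and 0 changed sign. Under quantile and TMM scaling, and with voom on the scaling of the main fit, the median change of all genes was −0.03 to 0.01 for corneal and −0.02 to −0.001 for conjunctival libraries. Over all genes, the number called ran from 46 (replicate block) to 705 (array weights) in the cornea, with 536 without AL 4 and 309 without CR 1, beside 150, and from 10 to 149 in the conjunctiva, beside 50. No member passed the difference between tissues with a pseudocount of 10 or per shared title (8 titles). Genes with few reads, such as *Oas1a*, *Oas2*, *Mx2*, *Iigp1* and *Gbp5*, are limited by depth.

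Each mouse had 1 diet, so an AL and a CR library of the same number came from different animals. The deviations of same-numbered libraries from their group means correlated between −0.30 and 0.29 for corneal and between −0.06 and 0.05 for conjunctival pairs. These few pairs showed no common sign, which does not settle whether libraries of the same number shared handling. With the replicate number as a block, 1 member was called in the cornea and 0 in the conjunctiva, where 7 of 9 GTPase genes had negative changes and *Ifi47* was at −1.21 (adjusted p = 0.057). Over all genes the block gave 46 calls in the cornea and 10 in the conjunctiva.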
